A study of Drosophila melanogaster with 6 samples.

Results

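The genes of mitosis and cytokinesis were examined in midgut cells of the fruit fly enriched for intestinal stem cells. The set was defined by 44 gene names covering entry into mitosis, the chromosomal passenger complex, the spindle checkpoint, the spindle, the kinetochore, chromosome separation and cytokinesis. A gene row of the authors' deposited table was a member if its gene field held 1 of these names, which gave 42 of 8164 rows. The other 2 names, fzr and Zw10, had no row under those names. Of the 42 rows, 41 held a single gene, and 1 joined cnn with CG30062, so its reads cannot be assigned to either gene.

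The series held 6 RNA libraries, 3 of young flies aged 6 to 8 days and 3 of old flies aged 59 to 65 days, with every library labelled as a separate batch of midguts. All flies had 1 genotype, a yw background with the driver insertion esg-GAL4 NP5130 and the reporters UAS-GFP and UAS-GFPnlacZ (N 1099). Cells were sorted from dissociated midguts, and because escargot drives the reporter in stem cells and in their enteroblast daughters, the sorted population is a mixture in which only some cells can divide. The comparison addresses which transcripts of this population differ between young and old animals. A further 12 columns hold values for single libraries, but their names match no sample label. They were not used, so no value per library, no depth and no standard error is given for any gene. The sources used here do not state which age is the numerator of the log2 fold change. A positive or negative sign therefore says that members differed in the same or in opposite directions, not which age was higher.

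In a dividing cell, Cyclin A and Cyclin B with their kinase start mitosis once the String phosphatase removes the inhibitory phosphate that the Wee kinase adds. Polo and the Aurora kinases then build the spindle, the checkpoint holds the cell until every kinetochore is attached, and the anaphase-promoting complex with Fizzy destroys cyclin and securin so that separase can part the sister chromatids. The passenger complex, centralspindlin, Pebble, anillin and citron kinase then set up the cleavage furrow. In the fly midgut the stem cells are the main dividing cells. Many transcripts of this machinery are made mostly around the time of division, so in a bulk sample a larger share of dividing cells and more RNA per dividing cell cannot be told apart.

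Most members had a positive sign and few passed the test. In the authors' deposited table, 34 of 42 members had a positive and 8 a negative log2 fold change, with a median of 0.41 and a range from -0.88 to 1.23. Over all 8164 rows of the authors' deposited table, 53.8% were positive and the median was 0.05. At an adjusted p under 0.05, which is the rule for a call here, 2 members were called positive, cnn and polo, or 4.76% of members against 5.17% of all rows. None was called negative, against 1.94% of all rows, while 1 member of negative sign had an unadjusted p under 0.05. The share of members called was thus close to that of the whole table. Both calls ended when only rows of at least 5 CPM were kept and p was adjusted again, at 0.0573 for polo and 0.0570 for cnn. At an unadjusted p under 0.05 in the authors' deposited table, 14 members were positive, or 33.3% against 11.8% of all rows, and 1 was negative, or 2.38% against 7.48%. At an adjusted p under 0.10, 7 members were positive, or 16.7% against 7.30% of all rows, and 1 was negative, or 2.38% against 3.56%. No member was called at an adjusted p under 0.01, where 4.61% of all rows were called, and none at 0.05 with a minimum of a 2-fold difference, where 6.71% were. The members were measured in the same libraries, so their shared sign is not a set of independent observations.

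**Figure D1:**
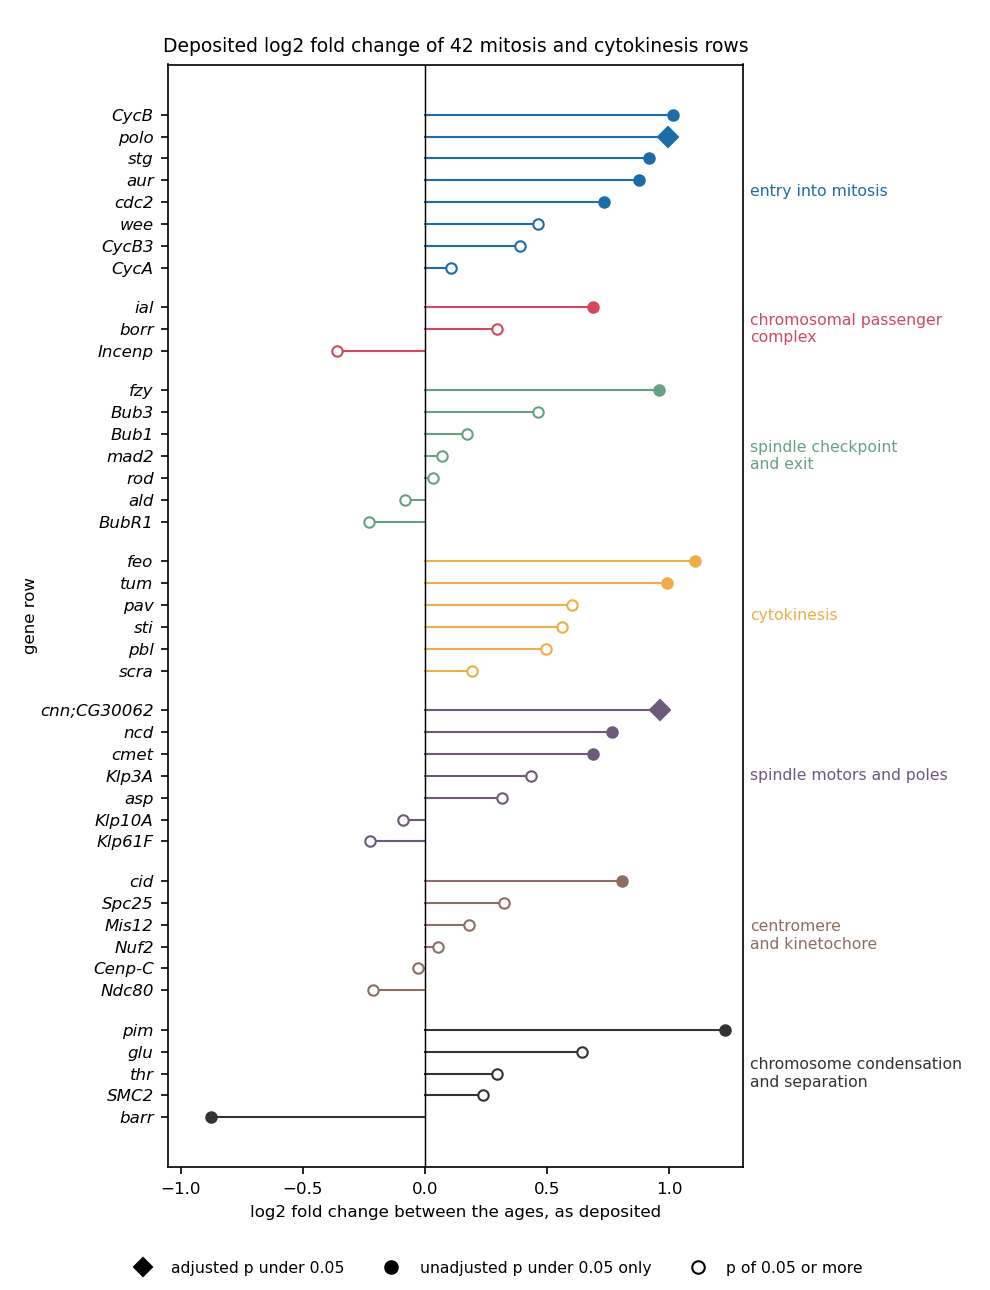
Log2 fold change between the ages (horizontal axis, as deposited) of the 42 member rows, grouped by role and ordered by value within each role. Diamonds mark the rows called at an adjusted p under 0.05, cnn and polo; filled circles mark the 13 other rows with an unadjusted p under 0.05, of which barr alone was negative.

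The fold changes of the whole table depended on abundance, and members were of modest abundance. The median member had a mean of 6.10 CPM, a read count scaled by library size, against 15.3 CPM for all rows, and 19 members lay below 5 CPM. Over 20 bins of mean abundance, the median log2 fold change of all rows was 0.23 in the lowest bin, up to 1.13 CPM, 0.41 in the next, up to 1.74 CPM, and -0.50 in the highest, above 255 CPM. Across all 8164 rows the rank correlation of fold change with abundance was -0.38, and across the 42 members -0.25, both given as a description over genes of the same libraries. In the members' own abundance bins, weighted by the members in each, 65.95% of rows were positive, against 81.0% of members. In the same bins 15.5% of rows had a positive sign with an unadjusted p under 0.05, against 33.3% of members. At an adjusted p under 0.05 the shares were close, with 6.33% of rows in these bins called positive against 4.76% of members, which is 2 rows. After the median of its bin was subtracted from each member, the median of the set was 0.17, and 28 of 42 members lay above their bin. What produced the trend with abundance was not tested.

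**Figure D2:**
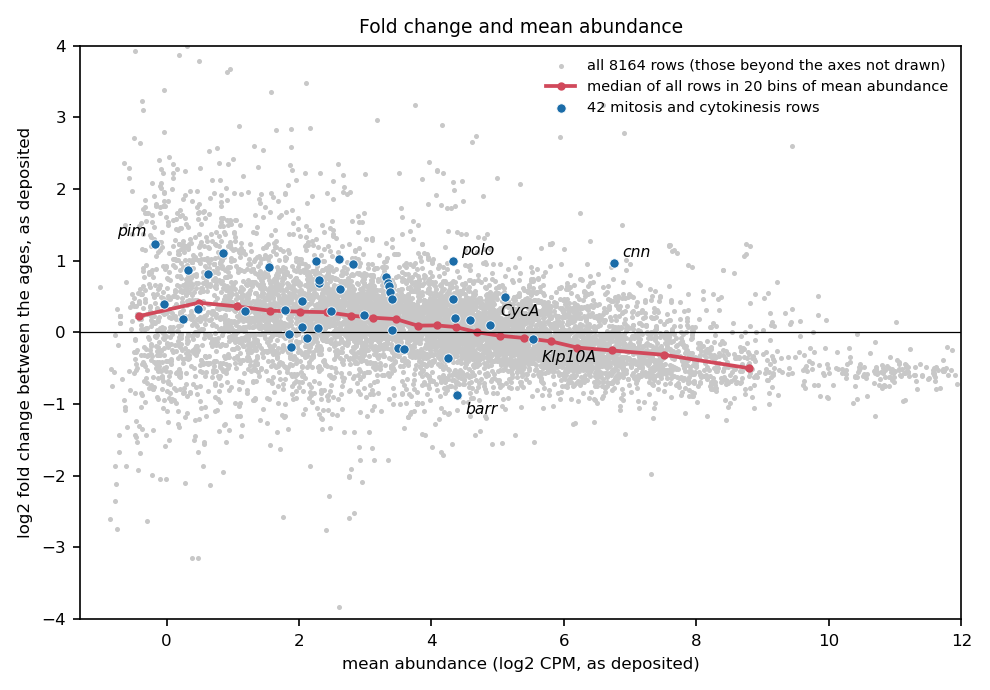
Log2 fold change (vertical axis) against mean abundance as log2 CPM (horizontal axis) for all rows in grey and the 42 members in blue, as deposited. The red line joins the medians of 20 bins of abundance, which are 0.23 in the lowest bin, 0.41 in the next and -0.50 in the highest, and cnn and polo lie 1.21 and 0.92 above the median of their bins.

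The 8 genes of entry into mitosis all had a positive sign, with a median log2 fold change of 0.80, and all 8 lay above the median of rows of like abundance. The call was polo (FBgn0003124, dm3 3L from 20303105 to 20306566), the kinase that acts at centrosomes, kinetochores and the midzone. In the authors' deposited table polo had a log2 fold change of 0.99, a 1.99-fold difference, and its mean was 20.02 CPM (unadjusted p = 0.00224, adjusted p = 0.0349). The mitotic cyclin gene CycB (FBgn0000405, 2R from 18691027 to 18694490) had a larger value that missed the threshold, 1.02 at 6.06 CPM in the authors' deposited table (unadjusted p = 0.00644, adjusted p = 0.0733). Its kinase cdc2, the fly Cdk1 (FBgn0004106, 2L from 10384739 to 10386263), had 0.73 at 4.91 CPM in the authors' deposited table (unadjusted p = 0.0476, adjusted p = 0.253). The activating phosphatase gene stg (FBgn0003525, 3R from 25077540 to 25081502) had 0.92 at 2.91 CPM in the authors' deposited table (unadjusted p = 0.0297, adjusted p = 0.193). The Aurora A kinase gene aur (FBgn0000147, 3R from 7788852 to 7790550), which acts on centrosomes, had 0.88 at only 1.25 CPM in the authors' deposited table (unadjusted p = 0.0493, adjusted p = 0.257). These 5 genes thus lay between 0.73 and 1.02 on the log2 scale, and polo alone passed the test.

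The remaining genes of this role were nearer to 0. The inhibitory kinase gene wee, which opposes stg, stood at 0.46 on the log2 scale in the authors' deposited table (adjusted p = 0.488). CycB3, a further mitotic cyclin, had 0.39 at 0.973 CPM in the authors' deposited table (adjusted p = 0.702). CycA (FBgn0000404, 3L from 11820297 to 11826677), whose protein acts before and during entry into mitosis, was the most abundant gene of the role at 29.5 CPM. Its log2 fold change was 0.11 in the authors' deposited table (unadjusted p = 0.652, adjusted p = 0.869). The fold changes of the cyclin genes CycB and CycA thus stood at 1.02 and 0.11, and their difference was not tested.

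All 6 cytokinesis genes were also positive, with a median log2 fold change of 0.58, all of them above the median of rows of like abundance, and none was called. The central spindle gene feo, the fly PRC1 that bundles antiparallel microtubules (FBgn0030241, X from 10746478 to 10748907), had 1.10 at 1.804 CPM in the authors' deposited table (unadjusted p = 0.00581, adjusted p = 0.0676). The centralspindlin subunit gene tum (FBgn0086356, 2R from 9743648 to 9746222) had 0.99 at 4.80 CPM in the authors' deposited table (unadjusted p = 0.00389, adjusted p = 0.0511). Both act at the spindle midzone, and both missed the threshold. The kinesin partner of tum in centralspindlin, pav, had 0.60 at 6.14 CPM in the authors' deposited table (adjusted p = 0.355). Citron kinase, encoded by sti, stabilises the ring late in cytokinesis, and sti had 0.56 in the authors' deposited table (adjusted p = 0.353). The gene pbl (FBgn0003041, 3L from 7889214 to 7905051), which is needed to form the cleavage furrow and was the most abundant of the role at 34.5 CPM, had 0.49 in the authors' deposited table (unadjusted p = 0.0991, adjusted p = 0.378). The anillin gene scra, whose protein ties the contractile ring to the membrane, had the smallest value of the role, 0.19 in the authors' deposited table (adjusted p = 0.838).

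Among 7 genes of spindle motors and poles, 5 were positive and 2 negative, with a median log2 fold change of 0.43. The call was the row of cnn and CG30062 (2R from 9326819 to 9337990), in which cnn (FBgn0013765) encodes Centrosomin, the scaffold of the pericentriolar material. Its log2 fold change was 0.96, a 1.95-fold difference, in the authors' deposited table (unadjusted p = 0.00222, adjusted p = 0.0347). At 108 CPM it was the most abundant member row, and how much of it belongs to CG30062 was not tested. The minus-end kinesin gene ncd (FBgn0002924, 3R from 25630009 to 25632849), which focuses spindle poles, had 0.76 at 9.91 CPM in the authors' deposited table (unadjusted p = 0.0195, adjusted p = 0.149). The kinetochore kinesin gene cmet (2L from 11260823 to 11269179), related to CENP-E, had 0.69 at 10.2 CPM in the authors' deposited table (unadjusted p = 0.0362, adjusted p = 0.217). Neither of these kinesin genes passed the test. The chromokinesin gene Klp3A had 0.43 and the pole-focusing gene asp 0.32 in the authors' deposited table (adjusted p = 0.591 and 0.745). Klp61F, whose bipolar kinesin pushes the poles apart, had -0.22, and the microtubule-depolymerising kinesin gene Klp10A -0.09 in the authors' deposited table (adjusted p = 0.750 and 0.979). With the bin medians subtracted, these 7 genes had a median of 0.14.

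Checkpoint genes had small fold changes, and the gene of their target, fzy, had a larger one that missed the threshold. Of 7 measured genes of the spindle checkpoint and mitotic exit, 5 were positive and 2 negative, none was called, and the median log2 fold change was 0.07. The activator of the anaphase-promoting complex, fzy, the fly Cdc20 (FBgn0001086, 2L from 16310929 to 16313097), had 0.96 at 7.02 CPM in the authors' deposited table (unadjusted p = 0.00467, adjusted p = 0.05745). Bub3, the adaptor of the checkpoint kinases, had 0.46 and Bub1 (FBgn0031696, 2L from 5279051 to 5283002), the most abundant gene of the role at 24.03 CPM, 0.17 in the authors' deposited table (unadjusted p = 0.172 and 0.536, adjusted p = 0.499 and 0.808). The inhibitor genes mad2 and BubR1, whose proteins hold Fizzy in check, had 0.07 and -0.23 in the authors' deposited table (adjusted p = 0.983 and 0.822). The kinetochore recruiter gene rod had 0.04 and ald, the fly Mps1 kinase, -0.08 in the authors' deposited table (adjusted p = 0.990 for each). Of these 7 genes, 3 lay above the median of rows of like abundance. RefSeq lists the row names rap and mit(1)15 as synonyms of fzr and Zw10. The fly Cdh1 gene, as rap, had -0.16 at 74.3 CPM (adjusted p = 0.899), and the partner gene of rod, as mit(1)15, -0.17 at 9.35 CPM (adjusted p = 0.806), in the authors' deposited table. With these rows the set held 44 rows, of which 34 were positive.

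Genes of the chromosomal passenger complex did not share a sign. The kinase gene ial, the fly Aurora B (FBgn0024227, 2L from 10856788 to 10858082), had 0.69 at 4.91 CPM in the authors' deposited table (unadjusted p = 0.0444, adjusted p = 0.244). Its scaffold gene Incenp (FBgn0260991, 2R from 3165972 to 3169066) had -0.36 at 19.1 CPM in the authors' deposited table (unadjusted p = 0.285, adjusted p = 0.631). The Borealin gene borr had 0.29 at 2.27 CPM in the authors' deposited table (adjusted p = 0.778). None of these 3 genes was called.

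Kinetochore genes had small fold changes, the largest being that of the centromeric histone gene. Of 6 genes, 4 were positive and 2 negative, none was called, all lay below 5 CPM, and the median log2 fold change was 0.12. The centromeric histone gene cid (FBgn0040477, 2R from 9373106 to 9374135) had 0.81 at 1.54 CPM in the authors' deposited table (unadjusted p = 0.0348, adjusted p = 0.213). The subunits of the microtubule-binding complex, Ndc80, Nuf2 and Spc25, had -0.21, 0.05 and 0.32 in the authors' deposited table (adjusted p = 0.742, 0.999 and 0.822). Nuf2 (FBgn0031886, 2L from 7064431 to 7065833) was the most abundant gene of the role, at 4.87 CPM (unadjusted p = 0.977) in the authors' deposited table. The inner kinetochore gene Cenp-C had -0.03 and Mis12, which links it to the outer layer, 0.18 in the authors' deposited table (adjusted p = 0.963 and 0.887). Of the 6 genes, cid alone lay above the median of rows of like abundance, and the median after subtraction of the bin medians was -0.23. The value of Spc25 is uncertain, because its whole span of 1502 bases lies inside that of the row granny-smith;CG14384 on the other strand, which averaged 3686 CPM and had a log2 value of -6.12 in the authors' deposited table (adjusted p = 1.7e-53). The libraries do not mark strand, so strand cannot separate the reads of such overlapping genes. Spc25 itself averaged 1.39 CPM, and the part of the overlap in its value was not tested.

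Chromosome condensation and separation held the largest positive and the largest negative value of the set. The securin gene pim (FBgn0003087, 2L from 10362989 to 10364046), whose protein is destroyed at anaphase, had 1.23 at only 0.886 CPM in the authors' deposited table (unadjusted p = 0.00680, adjusted p = 0.0761). The separase gene thr, whose protein securin inhibits, had 0.30 at 5.62 CPM in the authors' deposited table (adjusted p = 0.691). Condensin compacts chromosomes with a pair of SMC ATPases, and their genes glu and SMC2 had 0.64 and 0.24 in the authors' deposited table (adjusted p = 0.263 and 0.803). The condensin subunit gene barr (FBgn0014127, 2L from 20058164 to 20060975) had the opposite sign, -0.88 at 20.9 CPM in the authors' deposited table (unadjusted p = 0.00607, adjusted p = 0.0698). Genes whose products form the same complex thus had fold changes from -0.88 to 0.64, a difference that was not tested.

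The sign of barr was shared by the genes around it. In order along chromosome 2L, barr lay in an unbroken run of 19 rows with a negative sign, from 19969484 to 20134901 in dm3 and 165 kb long. The median log2 fold change of the run was -1.09 and 10 of its rows were called negative, against 1.94% of all rows. Upstream in coordinate order, the neighbour at 1788 bases was sNPF, a neuropeptide gene, with -1.90 in the authors' deposited table (adjusted p = 1.5e-05). On the other side, 501 bases away, lay lok, the gene of the checkpoint kinase Chk2, with -0.69 in the authors' deposited table (adjusted p = 0.253). The largest negative value of the run was that of Kua, -3.83 in the authors' deposited table (adjusted p = 6.17e-18). No other member lay in a same-sign run of more than 10 rows. Shorter runs held members of positive sign. The row of cnn and that of cid lay in the same run of 6 rows on 2R, with a median of 0.56. The gene pim lay in a run of 5 rows with a median of 1.10, and polo in a run of 3 with a median of 0.59. The part of position in the values of barr and of these members was not tested.

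**Figure D3:**
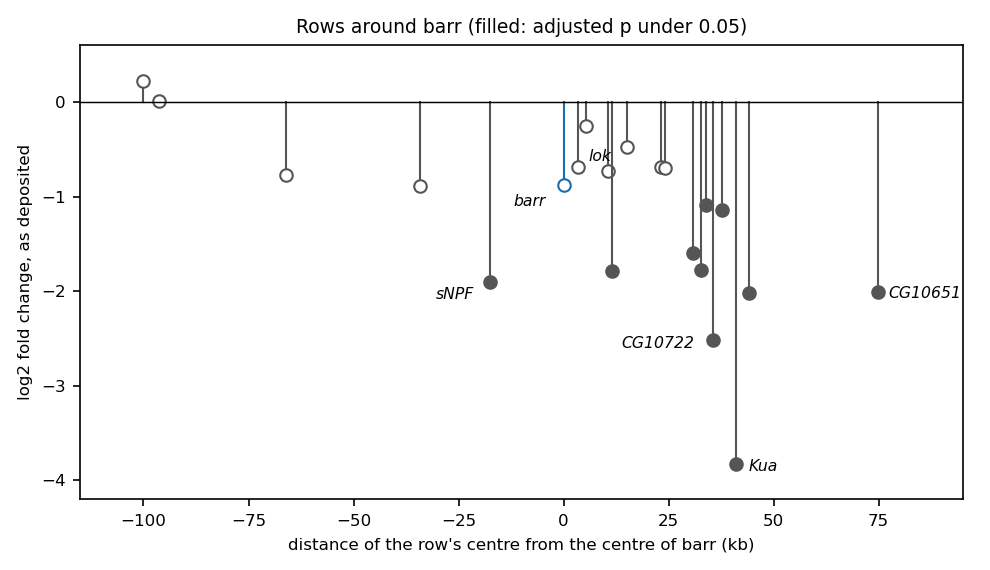
Log2 fold change (vertical axis, as deposited) of the rows whose centres lie within 150 kb of the centre of barr, at their distance in kb (horizontal axis). Filled circles are rows with an adjusted p under 0.05; the unbroken run of 19 negative rows includes barr at -0.88, sNPF at -1.90 and Kua at -3.83.

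Levels per length differed among the members by more than their fold changes between the ages. For the 40 single-gene rows whose transcripts matched the BDGP6 annotation, mean CPM was divided by the length of the longest matched transcript in kb. The level of the median gene on this scale was 2.21 CPM per kb, and the highest was 40.9 times the lowest. The highest levels were 16.2 CPM per kb for Bub3, 11.5 for CycA, 9.72 for Klp10A, 7.80 for barr and 7.07 for Incenp. The lowest levels were 0.396 CPM per kb for CycB3, 0.547 for asp, 0.744 for feo, 0.772 for Cenp-C and 0.792 for aur. The 5 genes with the highest levels had log2 fold changes from -0.88 to 0.46 in the authors' deposited table, and none had an unadjusted p under 0.05 except barr. Without values per library, no spread is known and neighbours in this order cannot be called different. The members lay on chromosomes 2L (11 rows), 2R (9), 3L (8), 3R (10) and X (4). Of the 42 members, 10 overlapped a row on the other strand, by at most 10.2% of their span except for Spc25, and polo and cnn overlapped none.

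**Figure D4:**
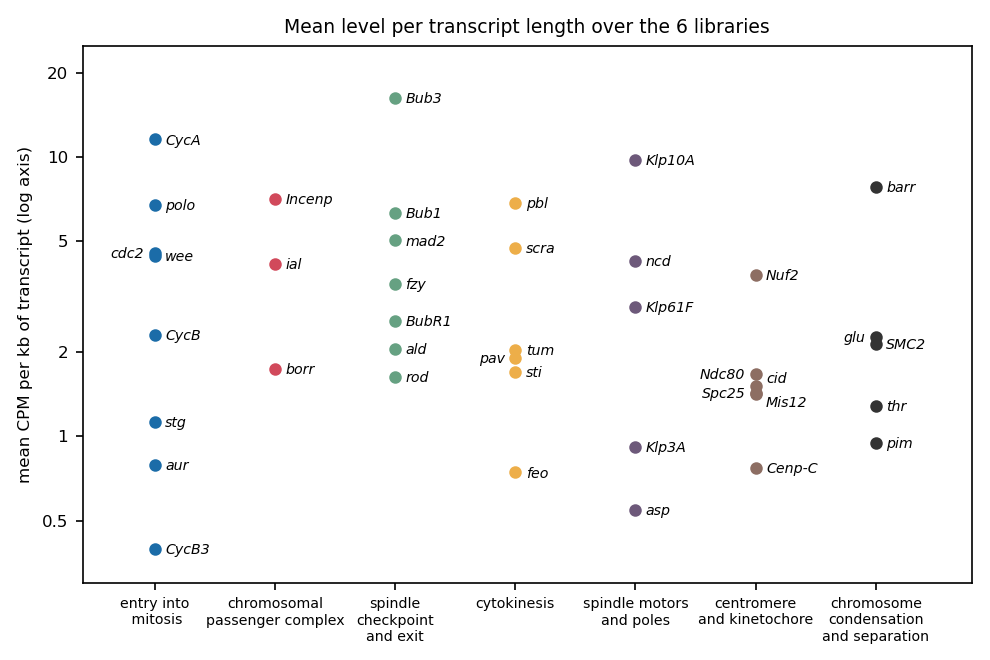
Mean level per transcript length (CPM per kb, log axis) of the 40 single-gene member rows with a matched transcript, by role, each point being the mean over all 6 libraries. Levels ran from 0.396 for CycB3 to 16.2 for Bub3, and kinetochore genes lay between 0.772 and 3.78.

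A wider list written around mitosis, taken as a whole, leaned to neither sign. This list of 97 further genes, from anaphase-promoting complex subunits to augmin, septins and the actomyosin ring, had 81 rows. It also held Lam, Nup107 and Dgp-1 and was not limited to genes specific to mitosis. The other 16 names had no row as spelled. Names were matched by exact spelling, so Cap-D2 was left out although a row CAP-D2 lies beside Bub3. Of the 81 rows, 4 were called positive and 1 negative, where 5.17% and 1.94% of all rows were called. In the list 40 rows had a positive and 41 a negative sign, and the median log2 fold change was -0.01. These genes were more abundant, with a median of 13.9 CPM and means from 1.28 to 1837 CPM. Their median after subtraction of the bin medians was 0.02. Parts of the list differed in sign. The augmin rows msd1, msd5, wac and dgt2 to dgt6 were all positive, from 0.002 for dgt5 to 1.35 for msd1. The rows zip, Rho1 and sqh were negative, between -0.62 and -0.34. None of them was called in the authors' deposited table (adjusted p = 0.320, 0.665 and 0.641). With the bin medians subtracted, the augmin rows ran from -0.01 for dgt4 to 0.93 for msd1. On that scale zip stood at -0.12, and Rho1 and sqh each at 0.16. The largest call was Cks30A, whose small protein binds mitotic Cyclin-dependent kinase, with 2.12 at 3.87 CPM in the authors' deposited table (adjusted p = 4.98e-07). The kinetochore gene Nnf1a had 1.16, and the augmin genes msd1 and dgt2, whose complex seeds microtubules within the spindle, 1.35 and 1.08 in the authors' deposited table (adjusted p = 0.0232, 0.0250 and 0.0372). Nnf1a averaged 3.28 CPM, msd1 1.72 CPM and dgt2 4.69 CPM. The 4 positive calls thus all lay below 5 CPM, and none would remain among rows of at least 5 CPM. The span of msd1 (3L from 1331729 to 1332324) overlaps at its end that of msd5 (from 1332300 to 1333152). The row msd5 had 0.59 at 1.87 CPM in the authors' deposited table, and the part of the overlap in the call of msd1 was not tested. The negative call was a row that joins nuf, which acts at cleavage furrows, with CG32141 and CG7768, at -1.07 in the authors' deposited table (adjusted p = 0.0243). The kinesin gene Klp59C missed the threshold, at -0.99 in the authors' deposited table (adjusted p = 0.0511), and its values nearly equalled those of 9 rows close by.

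Genes of the preceding cycle phases had a higher median than the members. Of 22 rows of G1 and S phase genes, 4 were called positive and none negative, against 5.17% and 1.94% of all rows. At an unadjusted p under 0.05, 13 were positive and 0 negative, against 11.8% and 7.48% of all rows. Their median log2 fold change was 0.67, and 0.58 after subtraction of the bin medians, against 0.41 and 0.17 for the members. The calls were Cdc6, a loader of the replicative helicase, with 1.43, the ribonucleotide reductase genes RnrS and RnrL with 1.04 and 0.96, and mus209, the fly PCNA, with 0.99 in the authors' deposited table. Their adjusted p-values were 0.00990, 0.0276, 0.0415 and 0.0425 in the authors' deposited table. Cdc6 averaged only 1.12 CPM and is uncertain because its span overlaps another row. The unadjusted p of RnrL and mus209, 0.00278 and 0.00289, lay above that of polo, 0.00224, in the authors' deposited table. The call of polo ended among rows of at least 5 CPM, a setting that was not applied to these genes. The 4 rows of negative sign were CycD, Cdk4, dap and the row of E2f and mir-11, between -0.15 and -0.13 in the authors' deposited table, none of them called. The other regulators of G1, Rbf and the E2F partner gene Dp, had 0.50 and 0.15 in the authors' deposited table (adjusted p = 0.380 and 0.871), and CycE, which starts S phase, at 0.82 (adjusted p = 0.158). The list was written with earlier results of these data known, and its difference from the members was not tested.

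**Figure D5:**
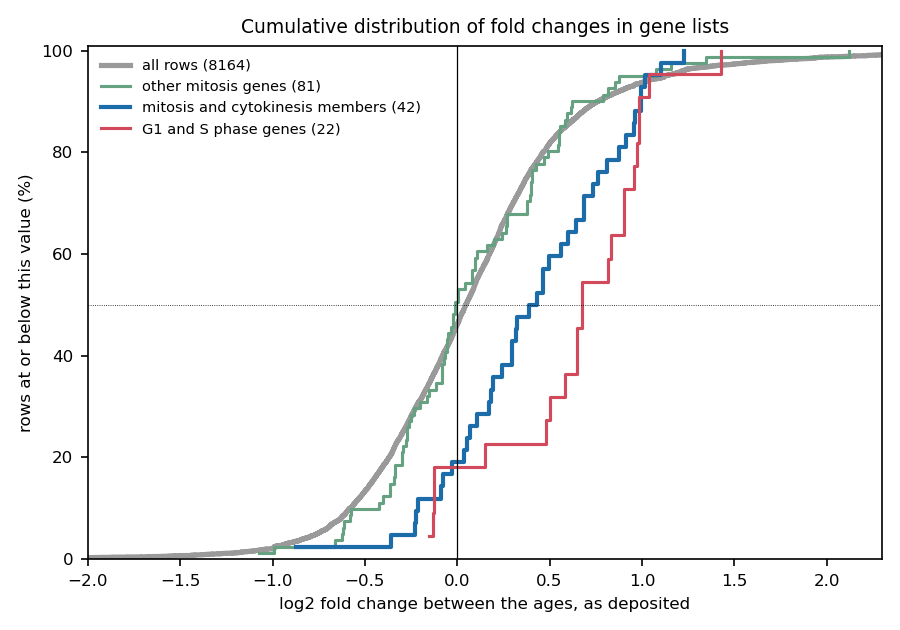
Cumulative share of rows (vertical axis, percent) at or below each log2 fold change (horizontal axis, as deposited) for all 8164 rows, the 42 members, 81 rows of the wider list (other mitosis genes) and 22 rows of G1 and S phase genes. The curves cross 50% near medians of 0.05, 0.41, -0.01 and 0.67.

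The sorted population carried its defining marker, and markers of other cell types were present too. The gene of the sorting driver, esg, averaged 835 CPM and its log2 fold change was -0.41 in the authors' deposited table (adjusted p = 0.548). Over all rows 5.17% were called positive and 1.94% negative. Of 7 progenitor markers 1 was called positive, with 3 positive and 4 negative signs. Of 6 enteroendocrine markers 4 were called, all positive, with a median of 1.39 and means from 13.5 to 122 CPM. Of 5 enterocyte markers 1 was called positive and 2 negative, and of 4 haemocyte markers 2 were called positive and 1 negative. Of 3 visceral muscle markers 3 were called positive, sls at 14122 CPM, up at 2.61 CPM and Zasp66 at 1.26 CPM. The call of Zasp66 is uncertain, because its span contains that of Cdc6 on the other strand. Summed levels of these markers in each age are not given here, because library columns were not used. The part of the cell mixture in the fold changes of the members was not tested.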

How the data were processed

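The authors deposited a table of 8164 gene rows. Per the file headers its measures are, for each row, the log2 fold change, the log2 CPM averaged over libraries, the p-value and the FDR. Adjusting the deposited p-value by the Benjamini-Hochberg method over the 8164 rows returned the FDR to within 2.56e-15. A TruSeq RNA kit that does not mark strand was used, per the labels' protocols. Per the submitters' processing notes, edgeR, TopHat 1.2.0, Bowtie and FastQC were used with the build dm3, in roles that are not stated. The rule for counting reads in overlapping genes was not given in the sources used here. A further sheet of the called rows was not used, nor were 12 columns of values per library, since their names match no sample label. The test on counts planned for columns with a matching label was therefore not run, no gene test was added, and no depth of a single library is given.

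Fold differences are 2 to the power of the deposited log2 value, and mean CPM is 2 to the power of the deposited mean log2 CPM. Gene rows were joined to gene identifiers and transcript lengths through their transcript identifiers and the BDGP6 annotation of Ensembl, which matched 41 of 42 members. Coordinates follow the table (dm3) and are counted from 1: in 539 of 4737 rows of 1 transcript, end minus start equalled the annotated span, against 138 rows where that difference plus 1 did. The adjustment, the 20 abundance bins and the overlap search were tested on simulated data. Every member with a row is named, with full values for those called or with an unadjusted p under 0.05 and for the most abundant gene of each role. From the lists of other mitosis genes and of G1 and S phase genes, called genes and some others are named. The marker lists are given as counts, with only esg and the visceral muscle genes named. Members and lists were chosen with earlier results of these data known. The p-values weigh the difference between the ages against the spread between 3 libraries an age, as the authors modelled it. The software was matplotlib 3.10.9, scipy 1.17.1, pandas 2.3.3 and numpy 2.4.6 under Python 3.11.15.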

Additional observations from a re-analysis of the deposited data

How the results depend on the processing

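No paired analysis was possible because the columns of values per library match no sample label. For the same reason another normalization, a filter on counts and leaving out a library were not run. The 2 positive calls became 0 at an adjusted p under 0.01, 0 at a minimum of a 2-fold difference, 0 among rows of at least 5 CPM with p adjusted again, 1 among single-gene rows and 7 at an adjusted p under 0.10, where negative calls went from 0 to 1. Among rows of at least 5 CPM the adjusted p was 0.0573 for polo and 0.0570 for cnn, since the table then held 6033 rows of which 228 were called. Both calls held among rows of at least 1 CPM, without overlapping rows, with the older names of fzr and Zw10, and without 149 rows of near-equal values (log2 fold change within 0.03 and log2 CPM within 0.05 of at least 2 others within 100 kb). The last 2 settings were chosen after the data were seen. The members' median log2 fold change of 0.41 was 0.39 in single-gene rows, 0.46 in rows of at least 5 CPM, 0.35 in members that overlap no row, 0.37 less the median of all rows and 0.17 less the median of rows of like abundance. With the older names it was 0.36, and without barr 0.43, both chosen after the data were seen. It was positive in all of these. For the values that moved, beyond what each setting leaves out, the cause was not tested.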
